A study of Mus musculus with 3 samples.

Results

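The cytosolic ribosomal protein genes encode the protein part of the ribosome that translates messenger RNA in the cytosol. They were taken here as every gene whose symbol begins with Rpl or Rps followed by a digit, with Rplp0, Rplp1, Rplp2 and Rpsa, and without the Rps6k kinases and pseudogenes named -ps. Only probe sets annotated to a single gene symbol were used, and where a gene had several, the one with the greatest mean of the 3 arrays stood for it. This gave 50 genes of 18193 genes with a single-symbol probe set on the array. Of the 50, 43 were core ribosomal proteins, 22 of the large and 21 of the small subunit, 6 were paralogs (Rps4l, Rpl3l, Rpl7l1, Rpl22l1, Rpl39l and Rps27l), and 1, Rps19bp1, encodes a binding protein of Rps19 and matched by its symbol alone. Of 89 protein-coding symbols of this pattern in the RefSeq gene table of GRCm38.p6, 49 were among these genes and 31 had probe sets annotated to several symbols only. The other 9 are not analysed here, and among them is Rps27a. Rps4l completes the 50 and is listed there as a transcribed pseudogene.

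The arrays came from mouse cells of the strain C57BL/6, 3 populations in all and 1 array for each, and no genetic change is named in the labels. Embryonic stem (ES) cells of the B6N-22 line were grown with leukemia inhibitory factor on mouse embryonic fibroblasts that had been treated with mitomycin C, so the ES sample can hold feeder cells. B cells carrying B220 and CD4 T cells were isolated by magnetic separation from spleens of mice aged 6 to 8 weeks, with a purity above 98% per the labels, and RNA was extracted directly after harvest. Trizol total RNA was used for all 3 populations. The sources used here do not give the number of mice behind each lymphocyte sample. Replicate error could therefore not be measured, no test was run, and each difference below describes these 3 arrays only.

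A ribosome joins a large and a small subunit, each built from ribosomal RNA and a fixed set of small basic proteins. Most of these proteins are present in 1 copy per ribosome, and their mRNAs are among the most abundant of growing cells. The mRNAs begin with a run of pyrimidines called the 5′ terminal oligopyrimidine (TOP) motif, through which their translation is adjusted to nutrient and growth signals, and therefore the mRNA level alone does not give the rate of protein synthesis. Several proteins have paralogs that arose by gene duplication or retrotransposition and are used in particular tissues, such as muscle or the male germ line. ES cells divide rapidly, while most splenic lymphocytes rest until an antigen is met.

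The values are linear probe set intensities, in arbitrary units, from a 3′ expression array. A signal counted as detected above 95.0, the 50th percentile of the values of all arrays, and lower signals were set to that level on the log2 scale, so a difference against an undetected array is the least size it can have. A gene was measured in a comparison where the brighter array exceeded the detection level, and a difference was counted from 2-fold, which is 1 on the log2 scale. The trimmed means of the arrays lay within 497 to 498, so the arrays give no measure of total mRNA per cell. The bright ends differed, with the 99th percentile at 14643, 11801 and 11359 in ES, B and T cells, and highest signals of 51771, 58060.2 and 43544. In a mixed population, fewer cells of a type and less RNA per cell cannot be told apart. Each log2 difference compared a probe set with itself across arrays, and none compared different probe sets. Signals of different probe sets were ranked to choose the brightest and to group genes as bright or dim. Those of the marker genes were summed. The 3 comparisons are written T versus ES, B versus ES and T versus B, each as the log2 signal of the first minus that of the second.

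Most core ribosomal protein mRNAs were bright in all 3 populations, and the detected ones other than Rps27 and Rpl14 lay within 2-fold between them. Of 43 core genes, 42 were above the detection level, and 34 had signals above 20000 in each array. Over these 34 genes the greatest absolute log2 difference was 0.74 in T versus ES, 0.36 in B versus ES and 0.54 in T versus B. Genes this bright in each array lie near the top of the signal range and leave little room for a 2-fold difference, and the 20000 level was chosen after the values were seen. Among all genes measured, 22.7% were at least 2-fold higher and 24.7% at least 2-fold lower in T versus ES. The corresponding shares were 21.1% and 24.6% in B versus ES, and 8.88% and 6.32% in T versus B. The 9 core genes outside this bright set were Rpl12, Rpl14, Rpl27a, Rpl37, Rpl39, Rps6, Rps16, Rps25 and Rps27, and they are described with their probe sets below.

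**Figure D1:**
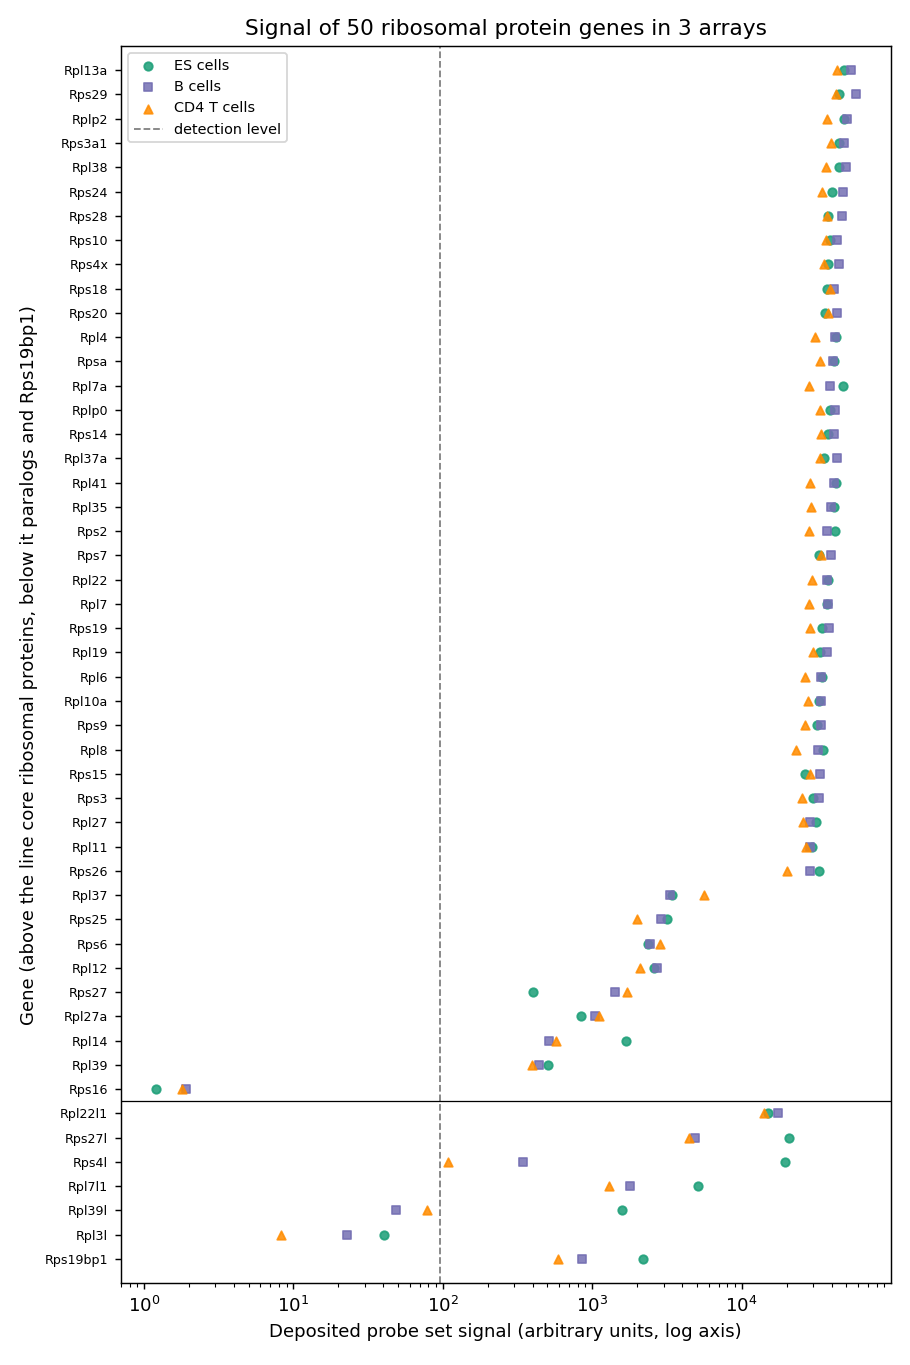
Each row is a gene and each point its signal on a log axis in ES cells (circles), B cells (squares) or T cells (triangles), with core genes above the line and paralogs and Rps19bp1 below it; rows are sorted by mean signal for display only, and the dashed line is the detection level of 95.0. The points of most core genes lie close together above 20000, whereas Rps4l, Rpl39l, Rps27l, Rpl7l1 and Rps19bp1 have a circle far to the right of the other symbols.

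Taken over the 42 measured core genes, the median log2 difference was -0.24 in T versus ES (quartiles -0.38 and -0.082), 0.088 in B versus ES (quartiles -0.045 and 0.17) and -0.33 in T versus B (quartiles -0.44 and -0.22). The distance between the quartiles was 0.30, 0.21 and 0.22 in these comparisons, and over all genes measured it was 1.84, 1.77 and 0.68. The medians of all genes were -0.11, -0.074 and -0.048. In T versus ES, 34 of 42 core genes were lower, where 53.8% of all genes were, and in B versus ES 16, where 52.6% were. Core genes were highest in B cells in 23 cases, in ES cells in 15 and in T cells in 4, beside shares of 28.5%, 45.9% and 25.6% among all detected genes. They were lowest in T cells in 33 cases, in ES cells in 7 and in B cells in 2, beside 34.1%, 40% and 25.9%. After quantile normalization, which gives all arrays the same distribution, T cells were highest in 20 and lowest in 10 of the 42. It turned the core medians of T cells to 0.055 against ES cells and 0.064 against B cells, and the median of B versus ES became 0.026. The medians of all genes moved to -0.26 in T versus ES and -0.22 in B versus ES, so relative to all genes the core medians were 0.32 and 0.25. Under that normalization 16 of 42 core genes were lower in T versus B, in place of 37, where 54.3% of all genes were lower as deposited. Scaling to the 75th percentile moved the median of all genes to -0.41 in T versus ES and -0.37 in B versus ES. It put the core medians at -0.62 and -0.26, which is -0.21 and 0.11 relative to all genes. The order of the 3 populations in core ribosomal protein mRNA therefore depends on the scaling of the arrays. Most core genes lie at the bright end of each array, which quantile normalization makes equal, so core medians near 0 are partly built into that setting.

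**Figure D2:**
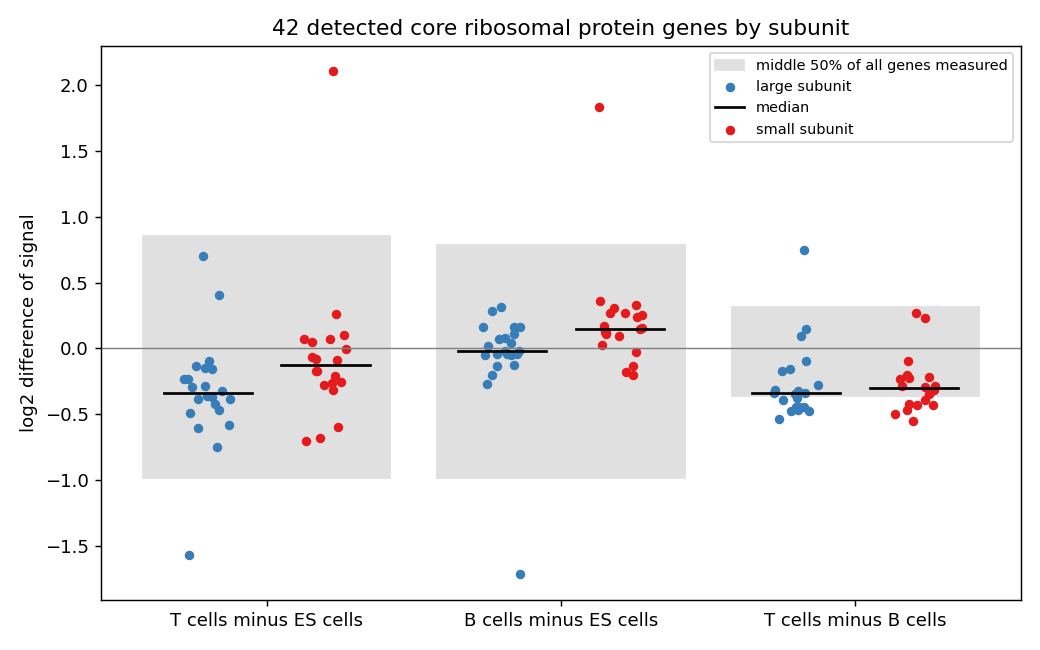
Points are the 42 detected core genes, by subunit, with the log2 difference of signal on the vertical axis for each of the 3 comparisons; black bars are medians and grey boxes span the lower to upper quartile of all genes measured. Nearly all points lie inside the grey boxes in the 2 comparisons with ES cells, and single points for Rps27 near 2 and Rpl14 near -1.6 lie outside. In T versus B the grey box is narrower, from -0.36 to 0.32, and the lower quartile of the core genes, -0.44, lies below it.

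By subunit, the medians in T versus ES were -0.34 over 22 large subunit genes and -0.13 over 20 small subunit genes. In B versus ES they were -0.021 and 0.15, with 10 of 22 large and 16 of 20 small subunit genes higher in B cells. In T versus B the medians were -0.34 and -0.30. After quantile normalization the large and small subunit medians were -0.051 and 0.19 in T versus ES, and -0.074 and 0.080 in B versus ES. The small subunit median thus lay above the large subunit median in both comparisons with ES cells in the deposited values and after quantile normalization. Both comparisons share the ES cell array, and the difference between subunits was not tested.

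The stalk of the large subunit, which binds the elongation factors, was represented by Rplp0 and Rplp2, with Rplp1 reached by a several-symbol probe set only. The signal of Rplp0 was 38933, 41967 and 33229.8 in ES, B and T cells. That of Rplp2 was 48273, 51064 and 36979 in ES, B and T cells. Both were highest in B cells and lowest in T cells as deposited, with log2 differences in T versus ES of -0.23 and -0.38, or 0.096 and -0.12 after quantile normalization. The Rplp1 probe set gave 41442, 43526 and 31255 in ES, B and T cells, the same order. Rpsa, a small subunit protein that was first described as a laminin receptor, had signals of 41774, 40992 and 33605 in ES, B and T cells, a difference of -0.31 in T versus ES and 0 after quantile normalization. In T versus B, Rplp0, Rplp2 and Rpsa differed by -0.34, -0.47 and -0.29, and after quantile normalization by 0.088, -0.060 and 0.14.

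Rpl22, Rpl11, Rpl38 and Rps19 are known for roles or diseases beyond general translation. Rpl22, which is required for the development of αβ T cells in mice, had signals of 37960, 37410.4 and 29615 in ES, B and T cells. Its log2 difference was -0.36 in T versus ES and -0.34 in T versus B, and 0.018 and 0.11 after quantile normalization. Rpl11, which together with Rpl5 and 5S RNA binds the p53 inhibitor Mdm2, had signals of 29769, 28871 and 27078 in ES, B and T cells. These lay close together, with differences of -0.14, -0.044 and -0.092 in T versus ES, B versus ES and T versus B, and the first became 0.15 after quantile normalization. Rpl38, whose loss in mice alters the translation of Hox mRNAs, had signals of 44757, 49992 and 36663 in ES, B and T cells and was highest in B cells. By probe sets shared with predicted genes or pseudogenes, Rpl5 had 40794, 44197 and 32268 in ES, B and T cells and Rpl10 38514, 39626 and 28777 in ES, B and T cells. Rps19, the first gene found mutated in Diamond-Blackfan anaemia in humans, had signals of 34475, 38374 and 28512 in ES, B and T cells, also highest in B cells and lowest in T cells as deposited. After quantile normalization Rpl38 and Rps19 differed by 0.0075 and 0.047 in T versus ES.

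The bright core genes with the greatest differences stood at opposite ends of a short scale, and Rpl7a, Rps26, Rpl8, Rps2 and Rps20 were named after their values were seen. Rpl7a had signals of 47315, 39271 and 28233 in ES, B and T cells, a difference of -0.74 in T versus ES. Rps26, which lies at the mRNA exit channel of the small subunit, had 32949, 28669 and 20258 in ES, B and T cells, a difference of -0.70. The order ES cells, B cells, T cells from high to low held, in the deposited values and after quantile normalization, for both and for Rpl8, Rps2 and Rpl41. In T versus ES these 5 genes then lay between -0.48 and -0.27. For Rpl41 the order was lost without _x_at and _s_at probe sets, where it was highest in T cells, by 0.47 in T versus ES and 1.18 in T versus B. Rpl41, the smallest ribosomal protein, had signals of 42686, 41378 and 28470.4 in ES, B and T cells. At the other end, Rps15 had signals of 26501, 33397 and 28517 in ES, B and T cells and Rps20 36189.5, 43622 and 37946 in ES, B and T cells, with ES cells the lowest of the 3 for each, also after quantile normalization. A second probe set of Rps15 put T cells lowest instead, at 28308, 29530.1 and 15432 in ES, B and T cells. The difference of Rps15 in T versus ES was -0.38 with the median over probe sets and -0.27 with 75th percentile scaling, in place of 0.11. Rps29 reached 57823 in B cells, against 44956 in ES cells and 42887 in T cells, the greatest bright difference in B versus ES at 0.36.

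Of all 50 genes, 48 were measured against ES cells, and the undetected genes were Rps16 and Rpl3l. Against ES cells, 6 genes in T cells lay at least 2-fold lower and 1 lay higher by that much, and the counts in B cells were also 6 and 1. The shares of all genes at least 2-fold lower and higher were, as given above, 24.7% and 22.7% in T versus ES and 24.6% and 21.1% in B versus ES. The 6 were Rps4l, Rpl39l, Rps27l, Rpl7l1, Rps19bp1 and Rpl14 in each comparison, and the 1 higher gene was Rps27. Those comparisons share the ES cell array. At 4-fold, 3 genes were lower in T cells and 3 in B cells, where 10.2% and 10.3% of all measured genes were. Rps27 alone was 4-fold higher in T cells and no gene was in B cells, beside 10.8% and 9.85% of all genes. In T versus B 1 of 47 measured genes, Rps4l, was at least 2-fold lower and 0 were at least 2-fold higher. In T versus B none differed 4-fold, while the shares of all genes were 2.49% higher and 1.85% lower.

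Rps27 and Rpl14 each rested on a single dim probe set, and probe sets shared with other symbols gave other values. Rps27 had signals of 399, 1424 and 1720.5 in ES, B and T cells, so both lymphocyte populations were above ES cells, by 4.31-fold for T cells and 3.57-fold for B cells. A probe set shared by Rps27 and its retrogene Rps27rt had signals of 26342, 40914 and 29936 in ES, B and T cells. Its log2 difference was 0.18 in T versus ES and 0.64 in B versus ES, both smaller than by the dim probe set and in the same direction. Rpl14 had signals of 1694, 515 and 572 in ES, B and T cells, which put ES cells 2.96-fold above T cells and 3.29-fold above B cells. The brightest probe set that Rpl14 shares with a pseudogene had signals of 39046, 33128 and 29032 in ES, B and T cells and differences of -0.43 and -0.24. Rps16 was at 1.2, 1.9 and 1.8 by its single-symbol probe set, below the detection level in all 3 arrays, while a probe set shared with a pseudogene and a predicted gene gave 38135, 45252 and 36355 in ES, B and T cells. The sources used here do not say which part of each transcript these probe sets cover.

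The other dim core genes differed less. Rpl37 had signals of 3411, 3302 and 5558 in ES, B and T cells and was the core gene with the greatest absolute difference in T versus B, at 0.75. The brightest probe sets that Rpl37 shares with its retrogene Rpl37rt gave -0.045 and -0.41 in T versus B, the opposite direction. Rps6, the phosphorylation target of the S6 kinases, had signals of 2377, 2427 and 2855 in ES, B and T cells by its single-symbol probe set, and its brightest probe set shared with a pseudogene gave 43881, 47344 and 33582 in ES, B and T cells. T cells were thus highest by the former and lowest by the latter, and some dimmer shared probe sets of Rps6 were also highest in T cells, by a log2 difference of up to 1.68 in T versus ES. Rpl27a was highest in T cells at 1114 and lowest in ES cells at 843, and its probe set shared with predicted genes gave a difference of -0.32 in place of 0.40 in T versus ES. Rps25 had signals of 3187, 2904 and 1987 in ES, B and T cells, the lowest value being again in T cells. Rpl12 had 2599, 2731 and 2081 in ES, B and T cells.

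Probe sets of the same gene disagreed by as much as the differences between populations. The 50 genes had 106 single-symbol probe sets, of which 98 were above the detection level in at least 1 array. Of 18 core genes with more than 1 detected probe set, 8 had probe sets that lay 1 or more apart on the log2 scale in T versus ES, 7 in B versus ES and 4 in T versus B. In T versus ES, Rps3 ranged from -2.34 to -0.26 and Rps9 from -0.29 to 1.07. Rps10 ranged from -1.32 to 0.18, Rpl37a from -1.40 to -0.096 and Rps18 from -1.24 to 0.075, and Rps24, Rps20 and Rpl41 reached from -0.70, -0.87 and -0.58 to 0.67, 0.22 and 0.47. In B versus ES, Rpl13a ranged from -1.05 to 0.28. In T versus B, Rpl41 ranged from -0.93 to 1.18. Several of these extremes came from dim probe sets, such as 1 of Rps18 at 244, 152 and 103 and 1 of Rps20 at 197, 163 and 108 in ES, B and T cells. For the brightest pair of probe sets of each core gene, the median disagreement was 0.34, 0.12 and 0.31 in the 3 comparisons, close in size to the core medians of -0.24, 0.088 and -0.33. In these pairs 2, 1 and 1 core genes had probe sets 1 or more apart.

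Ribosomal protein genes have many processed pseudogenes in the mouse genome, and a short probe can match a gene and its copies. Of the 50 representing probe sets, 13 carried the suffix _x_at and 2 the suffix _s_at, which mark sets whose probes can match several transcripts. A further 110 probe sets named a ribosomal protein gene together with other symbols. In 98 of these the other symbols were all pseudogenes or unnamed predicted genes, and they added 24 genes outside the rule, such as Rplp1, Rpl3, Rpl5 and Rpl10. These 24 had medians of -0.33, 0.098 and -0.42 in T versus ES, B versus ES and T versus B. By the brightest such probe set of each gene, none of them reached 2-fold in these comparisons. Dimmer shared probe sets of some did, in both directions. In T versus ES and B versus ES, a dim probe set of Rps13 gave 1.96 and 1.58. A dim probe set of Rpl13 gave -1.46 and -1.92. With these probe sets admitted for all genes, Rps27 was the 1 gene at least 2-fold higher against ES cells, and 5 genes in T cells and 5 in B cells were at least 2-fold lower. The bright probe set that Rps27 shares with Rps27rt was not among those admitted. Rps27 therefore kept its dim probe set, and its place in this count could not change.

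Of 5 detected paralogs, 4 were highest in ES cells and differed more than most core genes, where 45.9% of all detected genes were highest in ES cells. Rpl39l counts as detected through its ES cell signal alone, and the undetected Rpl3l is not among the 5. Rps4l, an autosomal copy of the X-linked gene Rps4x on chromosome 6, had signals of 19408, 346 and 109 in ES, B and T cells. It was 179-fold lower in T cells and 56.1-fold lower in B cells, both relative to ES cells, with the T cell signal just above the detection level of 95.0. The log2 difference in T versus ES was -7.48, and -6.31 when the detection level was raised to the 65th percentile. Its parent gene Rps4x had signals of 37908, 44841 and 35716 in ES, B and T cells, a difference of -0.086 in T versus ES. B cells held more Rps4l signal than T cells by 3.19-fold, a log2 difference of -1.67, or -0.50 when the 65th percentile set the detection level.

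Rpl39l, a paralog of the exit tunnel protein Rpl39 that is known from male germ cells, was detected in ES cells alone. Its signals were 1575, 48.9 and 78.1 in ES, B and T cells, and it was at least 16.6-fold lower in each lymphocyte population, a log2 difference of -4.05 that rests on the detection level and was -2.69 with the higher level. Rpl39 itself had signals of 509, 442 and 394 in ES, B and T cells, and by a bright probe set shared with a predicted gene 43589, 50673 and 30164 in ES, B and T cells. Rps27l, a p53-inducible paralog of Rps27, had signals of 20613, 4877 and 4427 in ES, B and T cells. ES cells were thus 4.66-fold above T cells and 4.23-fold above B cells, and all 3 probe sets of Rps27l gave log2 differences between -2.66 and -2.22 for T cells and between -2.38 and -2.08 for B cells. The parent gene Rps27 lay in the opposite direction by its dim probe set, as given above.

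Rpl7l1, a relative of Rpl7 whose yeast counterpart acts in assembly of the large subunit, had signals of 5087, 1784 and 1291 in ES, B and T cells. It was 3.94-fold lower in T cells and 2.85-fold lower in B cells when set against ES cells, and its 3 probe sets ranged from -2.26 to -1.56 and from -1.88 to -0.72. Rpl7 had signals of 37521, 38118 and 28033 in ES, B and T cells. Rpl22l1, the paralog of Rpl22 that rises in mice without Rpl22, was the exception among detected paralogs. Its signals were 14988, 17412 and 14015 in ES, B and T cells, so that all 3 populations lay within 2-fold, as for Rpl22. Rpl3l, a muscle paralog of Rpl3, was below the detection level in every array, at 40.1, 22.8 and 8.3. The listed paralogs Rpl10l, Rpl26l1, Rpl36al and Rps27rt had no single-symbol probe set and are not analysed here. Rps19bp1, which is not a ribosomal protein, had signals of 2192, 848 and 587 in ES, B and T cells, with ES cells 3.73-fold above T cells and 2.59-fold above B cells.

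**Figure D3:**
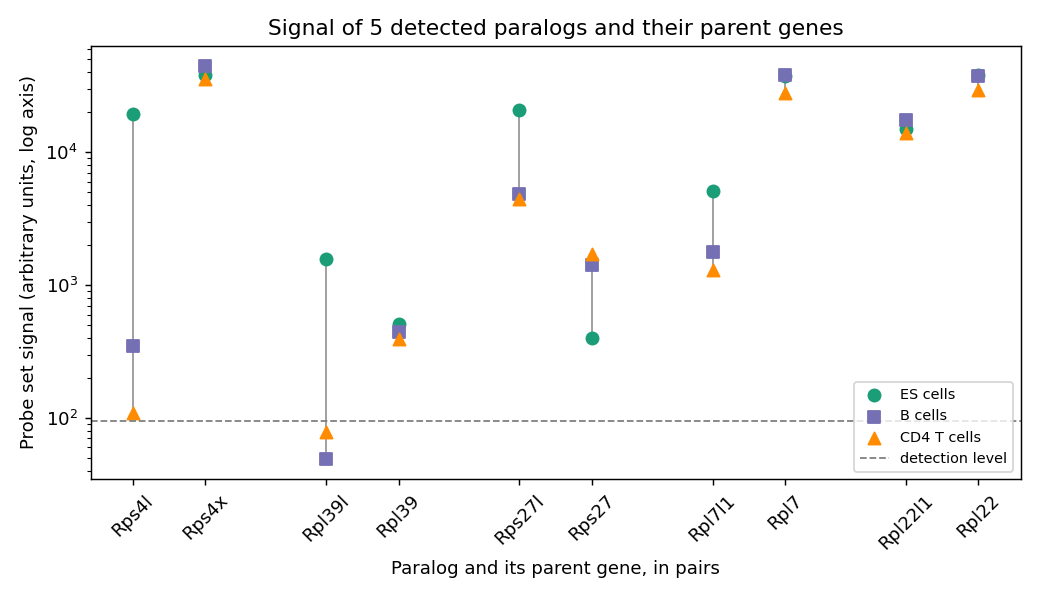
For each of 5 detected paralogs (left of each pair) and its parent gene (right), points give the signal in ES cells (circles), B cells (squares) and T cells (triangles) on a log axis, a grey line joins the 3, and the dashed line is the detection level of 95.0. Rps4l, Rpl39l, Rps27l and Rpl7l1 have ES cells on top and long lines, while Rpl22l1 and the parents Rps4x, Rpl39, Rpl7 and Rpl22 have short ones.

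The 4 paralogs were lower in both lymphocyte populations than in ES cells under all 6 other processing settings. Over 5 measured paralogs the median log2 difference was -2.22 for T cells and -2.08 in B versus ES, and 4 were at least 2-fold lower in each comparison as deposited and after quantile normalization. Of all genes measured, 24.7% and 24.6% were at least 2-fold lower as deposited, which is 3041 and 3063 genes. After quantile normalization 3509 and 3404 genes were. Markers of fibroblasts, the feeder cells of the ES culture, moved with the difference of the paralogs. All 8 listed fibroblast markers were detected in ES cells, 6 of 8 were undetected in B cells and 7 of 8 in T cells. Their summed signal was 41303, 441 and 7446 in ES, B and T cells, and of the last 7185 came from Thy1, a T cell surface gene too. The collagen gene Col1a2 had a signal of 15844 in ES cells. The part of feeder cells in the paralog signals was not tested.

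Promoter sequences from RefSeq, build GRCm38.p6, were matched to 44 of the 50 genes by gene ID, in 52 annotated start windows. The longest run of C or T was measured in the 15 bases before to 15 after the annotated start, where a TOP motif would lie. Its median length was 6 bases over 44 core windows (quartiles 4 and 10), 5 over 7 paralog windows and 4 over all 32851 windows of the table (quartiles 3 and 6). An annotated start can lie some bases from the start used by these cells. The 6 core windows with the longest runs are shown first, as the clearest examples of such runs, followed by the 4 detected paralogs that have a window. Runs of 2 or 3 bases occurred among core windows too, such as those of Rps3a1, Rpl11, Rpl41, Rps15 and Rps3. Rps27l has another annotated start, with a run of 4, and the window with the longer run is shown. The capitals mark the longest run of C or T, 5′ to 3′.
Rpl7a, chr2:26910792-26910821, plus strand: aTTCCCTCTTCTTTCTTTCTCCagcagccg
Rpl27a, chr7:109519180-109519209, plus strand: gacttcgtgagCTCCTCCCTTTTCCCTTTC
Rpl35, chr2:39005117-39005146, minus strand: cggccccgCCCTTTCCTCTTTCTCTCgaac
Rpl14, chr9:120571502-120571531, plus strand: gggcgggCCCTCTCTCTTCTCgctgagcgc
Rpl13a, chr7:45128731-45128760, minus strand: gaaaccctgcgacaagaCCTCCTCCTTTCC
Rps10, chr17:27635230-27635259, minus strand: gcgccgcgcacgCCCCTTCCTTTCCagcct
Rpl22l1, chr3:28805493-28805522, plus strand: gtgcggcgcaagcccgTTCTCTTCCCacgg
Rps27l, chr9:66946071-66946100, plus strand: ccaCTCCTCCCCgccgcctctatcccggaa
Rpl39l, chr16:10170213-10170242, plus strand: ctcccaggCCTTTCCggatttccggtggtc
Rpl7l1, chr17:46782642-46782671, minus strand: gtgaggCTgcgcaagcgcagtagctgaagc

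Among the paralogs, Rpl22l1, whose signal was near equal in the 3 populations, had a run of 10 bases. The paralogs highest in ES cells had runs of 9 bases for Rps27l (4 at its other start), 7 for Rpl39l and 2 for Rpl7l1. Rps4l, also highest in ES cells, had no window, and a link between run length and signal was not tested. Matches to 3 motifs were searched on both strands of the full windows from 250 bases before to 50 after the start. CCGGAAG, a core bound by ETS factors, was present in 43.2% of core windows and 8.86% of all windows. AAGATGG, part of the element of the factor YY1, was present in 15.9% and 6.34%, and TATAAA, the TATA box, in 11.4% and 13.6%. CCGGAAG and AAGATGG can overlap by the letters AAG. A match describes the sequence and is not evidence of binding. The promoters of 2 paralogs highest in ES cells and of their parents are shown from 250 bases before to 15 after the start, as pairs in which paralog and parent differed in their levels across the populations, with matches to the 3 motifs in capitals.
Rpl39, chrX:37085208-37085472, minus strand: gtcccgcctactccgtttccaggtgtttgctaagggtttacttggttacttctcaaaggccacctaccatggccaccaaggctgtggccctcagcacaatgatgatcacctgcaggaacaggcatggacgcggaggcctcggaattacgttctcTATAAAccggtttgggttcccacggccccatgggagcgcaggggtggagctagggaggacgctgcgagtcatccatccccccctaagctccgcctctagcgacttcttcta
Rpl39l, chr16:10169978-10170242, plus strand: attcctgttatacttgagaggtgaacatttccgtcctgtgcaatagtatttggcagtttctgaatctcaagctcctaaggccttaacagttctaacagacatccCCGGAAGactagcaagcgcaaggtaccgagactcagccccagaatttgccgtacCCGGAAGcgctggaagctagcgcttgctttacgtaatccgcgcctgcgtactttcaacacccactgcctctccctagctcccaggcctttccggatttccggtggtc
Rps27, chr3:90213634-90213898, minus strand: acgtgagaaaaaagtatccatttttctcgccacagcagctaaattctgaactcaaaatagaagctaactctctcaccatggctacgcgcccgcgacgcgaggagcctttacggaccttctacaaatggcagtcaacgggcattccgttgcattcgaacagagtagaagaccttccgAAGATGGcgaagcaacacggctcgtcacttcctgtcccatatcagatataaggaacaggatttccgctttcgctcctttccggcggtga
Rps27l, chr9:66945836-66946100, plus strand: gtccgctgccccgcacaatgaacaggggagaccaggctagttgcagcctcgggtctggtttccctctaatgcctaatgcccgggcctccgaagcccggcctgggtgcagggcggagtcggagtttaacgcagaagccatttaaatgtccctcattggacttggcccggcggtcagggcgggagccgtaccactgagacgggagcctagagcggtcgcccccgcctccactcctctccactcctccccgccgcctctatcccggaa

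The letters of Rpl39l held matches to CCGGAAG and those of its parent Rpl39 a match to TATAAA. Rps27 held a match to AAGATGG, and the stretch of Rps27l shown held no match to the 3 motifs. The stretches shown end before the full windows do, so a match nearer the end of a window is not seen in them. Over the full windows, CCGGAAG was present in 2 of 7 paralog windows. No promoter window was used for Rps4l, Rpl7, Rpl8, Rps14, Rps20 and Rps29.

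Genes that build ribosomes differed from the proteins of the ribosome itself. Of 30 measured ribosome assembly genes, 23 lay at least 2-fold lower and 0 higher in T versus ES, at a median log2 difference of -1.75. For all genes measured the share lower was 24.7%. In B cells 24 were lower and 0 higher, with a median of -1.58. Nhp2, a protein of the box H/ACA particles that guide pseudouridylation, had signals of 19749, 4116 and 2426 in ES, B and T cells. Wdr12, a member of the PeBoW complex of large subunit maturation, had signals of 3880.4, 711 and 949.5 in ES, B and T cells. Rrp1b had signals of 3754, 704 and 973 in ES, B and T cells. Riok1, a kinase of small subunit maturation, was the single assembly gene with a higher signal in both lymphocyte populations, at 662, 1073 and 1143 in ES, B and T cells. Its probe set carries the suffix _s_at. Without _x_at and _s_at probe sets, 0 of 29 measured assembly genes were higher in T versus ES and 1 in B versus ES. In T versus B the median was -0.20, and 0 genes reached 2-fold. The summed fibroblast markers (41303, 441 and 7446 in ES, B and T cells) and macrophage markers (3499.6, 21056 and 49832) moved with this difference and with those of the next lists, and their part was not tested.

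RNA polymerase I, which transcribes the ribosomal RNA genes, followed the assembly genes to a lesser degree. Of 14 subunits and initiation factors, 8 in T versus ES and 6 in B versus ES were at least 2-fold lower, with medians of -1.10 and -0.72 and 0 higher in either, beside shares of 24.7% and 24.6% lower among all genes. Rrn3, the initiation factor that couples the polymerase to growth signals, had signals of 2785, 660.5 and 731 in ES, B and T cells. Polr1c, a subunit shared with RNA polymerase III, had 6556, 1646 and 1663 in ES, B and T cells, and Cd3eap, which encodes a subunit specific to RNA polymerase I, had 416, 136 and 129 in ES, B and T cells. The ribosomal proteins of mitochondria, encoded in the nucleus like the cytosolic ones, were also lower in lymphocytes. Of 76, 42 in T versus ES and 37 in B versus ES were at least 2-fold lower, with 0 higher by that much in either, beside the same shares among all genes, and medians of -1.11 and -0.97. The list was not uniform, as 7 genes were above ES cells in T cells by less than 2-fold, among them Mrpl33 at 0.66 and Mrpl9 at 0.32 on the log2 scale. The greatest differences were those of Mrps18b, Mrpl47 and Mrpl15. Mrps18b had signals of 4845, 1399 and 932 in ES, B and T cells, Mrpl47 of 3787, 1037 and 731 in ES, B and T cells and Mrpl15 of 8825, 2241 and 1704 in ES, B and T cells.

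Translation factors whose mRNAs also begin with a TOP motif lay close to the core genes. Of 11 measured, 0 were 2-fold lower and 0 2-fold higher in either lymphocyte population against ES cells. Among all genes 24.7% and 24.6% were lower, and 22.7% and 21.1% higher, in T and B cells. The list medians were -0.43 for T cells and -0.11 for B cells, and the latter was 0.0061 after quantile normalization. With 75th percentile scaling, which also lowered the medians of all genes, 3 were 2-fold lower in T cells and 1 in B cells. The list medians were then -0.81 and -0.46. With the median over probe sets, 1 of 10 was 2-fold lower and 1 higher in each. Eef1d, a subunit of the exchange factor of elongation factor 1, had signals of 17071, 9226 and 9568 in ES, B and T cells. Tpt1 had 45209, 52126 and 28461 in ES, B and T cells, and Eif4b, a cofactor of the initiation helicase, had 9140, 6294 and 5754 in ES, B and T cells. Fau, which encodes the small subunit protein eS30 as a fusion with a ubiquitin-like protein, had signals of 31036, 41843 and 27059 in ES, B and T cells and was highest in B cells and lowest in T cells as deposited, while its difference in T versus ES of -0.20 became 0.10 after quantile normalization. Over the 7 settings, the median of the assembly list stayed between -2.12 and -1.49 for T cells and between -1.93 and -1.35 in B versus ES. For mitochondrial ribosomal proteins it stayed between -1.52 and -0.77 and between -1.39 and -0.63. The core probe sets lie near the upper end of each array's signal range, and whether saturation narrowed their differences was not tested.

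**Figure D4:**
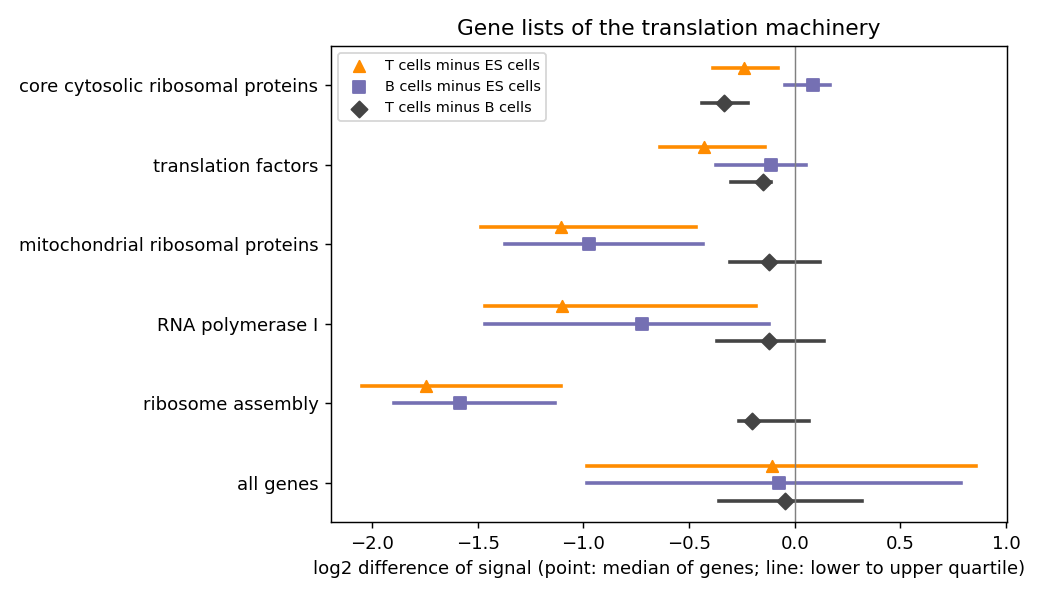
Points are medians and lines run from the lower to the upper quartile of the log2 differences of each gene list, for T cells minus ES cells (triangles), B cells minus ES cells (squares) and T cells minus B cells (diamonds). The core and translation factor medians lie between -0.43 and 0.088, whereas the mitochondrial, RNA polymerase I and assembly lists lie further below 0 in both comparisons with ES cells.

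The labelled cell types were checked by their markers. All 6 ES cell markers were detected in ES cells and in neither lymphocyte array, with Pou5f1 at 15458 in ES cells. All 5 T cell markers with a probe set were detected in T cells, with a summed signal of 44286 there, 742 in B cells and 115 in ES cells. The 5 B cell markers summed to 88712 in B cells and 4589 in T cells, where 4 of 5 were detected. All 6 macrophage markers were detected in both lymphocyte arrays, with sums of 21056 and 49832 in B and T cells, and 5 of 6 in ES cells with a sum of 3499.6. Csf1r, the receptor of macrophage colony-stimulating factor, was at 209, 8929.9 and 19275 in ES, B and T cells. Of 4 erythroid markers with a probe set, Slc4a1 alone was detected, in both lymphocyte arrays and not in ES cells. The part of these other cells in the core ribosomal protein values was not tested.

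**Figure D5:**
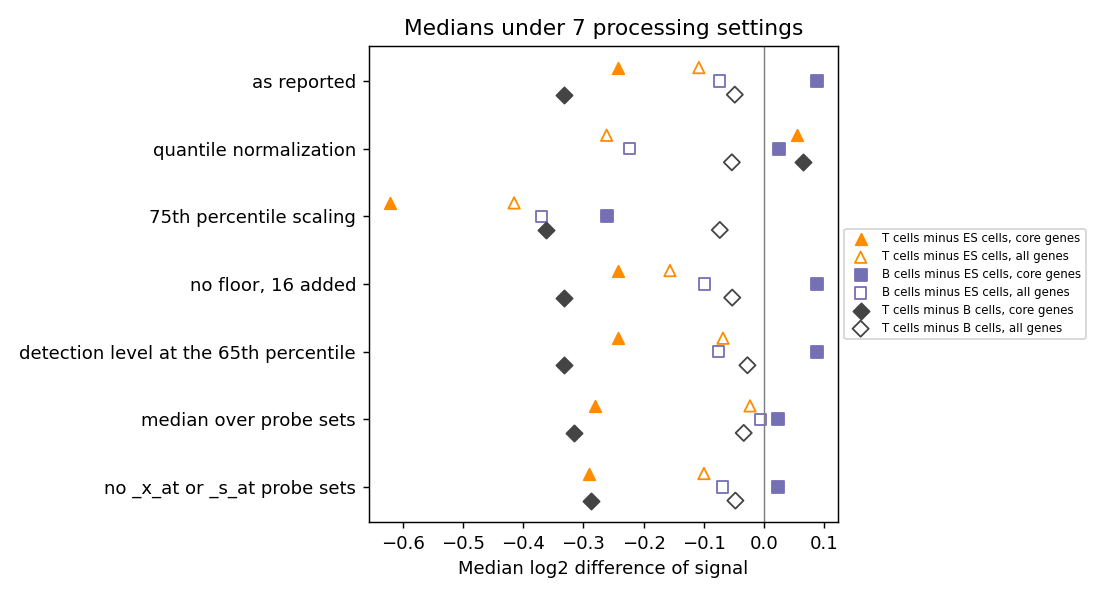
The median log2 difference is plotted for the core genes (filled) and for all genes measured (open) in each comparison, under the reported processing and 6 alternatives. Quantile normalization moves the core medians of T cells from the left of 0 to the right, and scaling to the 75th percentile moves the core median of B versus ES from 0.088 to -0.26.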

How the data were processed

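Per the labels' protocols, total RNA was given a biotin label by a 3′ IVT Express Kit and read on 1 array per population. The authors deposited linear probe set intensity values for 45037 probe sets, made with Affymetrix Expression Console per the submitters' processing notes. The sources used here do not give its version, summarization, background treatment or scaling target. Probe sets were named by GEO's platform annotation, with 34945 having 1 symbol, 932 several and 9160 none listed. All 50 member IDs were found in RefSeq and 0 symbols changed.

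Python 3.11.15, pandas 2.3.3, NumPy 2.4.6, SciPy 1.17.1 and matplotlib 3.10.9 were used. Calls of 8-fold differences were tested on simulated data, in genes well above the detection level. That simulation does not bear on the counts from 2-fold. Members and lists were chosen with earlier results of these data known. Genes were named if they were paralogs or parents, stalk genes or Rpsa, at least 2-fold different, among the 4 greatest or smallest differences of a comparison, or on a short list, and others are marked. Alternatives were quantile normalization, 75th percentile scaling, 16 added without a floor, a detection level at the 65th percentile, the median over probe sets, no _x_at or _s_at probe sets, core genes only, and 4-fold. The number of arrays limits the precision, and no replicate error, paired fit or test was possible.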

Additional observations from a re-analysis of the deposited data

How the results depend on the processing

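For the 50 genes the median log2 difference was -0.27 for T cells against ES cells, 0.058 for B cells against ES cells and -0.34 for T cells against B cells. Quantile normalization reversed the first and the last to 0.031 and 0.0080. It makes the bright ends of the arrays equal, where most core genes lie, so medians near 0 are partly built in. How far this accounts for the reversal was not tested. The median of B cells against ES cells was reversed to -0.29 by 75th percentile scaling and to -0.017 without _x_at and _s_at probe sets. The counts at least 2-fold apart were 6 lower and 1 higher in each lymphocyte population against ES cells, and 1 lower and 0 higher in T cells against B cells. Lower counts in T versus ES were 9 with 75th percentile scaling and 7 with the median over probe sets, which also gave 7 in B versus ES. At 4-fold, which counts fewer genes by construction, they were 3 lower in T cells and 3 in B cells, 0 higher in B cells and 0 lower in T cells against B cells. With the median over probe sets 2 genes were higher in T cells than in ES cells, without _x_at and _s_at probe sets 1 (Rpl41) was higher in T versus B, and 0 were lower there when the 65th percentile set the detection level. Over core genes of signal 10000 or more, a subset chosen after seeing the data, all 6 counts were 0. Of the values of named genes under the alternatives, 420 stayed within the probe set disagreement of their comparison (SD 0.77, 0.76 and 0.40) and 15 moved by more. These SDs cover all genes, and against ES cells they exceed the greatest bright core differences, 0.74 and 0.36. A core value could thus change sign and stay within them, as Rpl22 did in T versus ES, from -0.36 to 0.018 under quantile normalization. For a bright gene with 1 probe set, the floor, detection level and probe set median settings could hardly change the value. The probe sets shared with pseudogenes, also added after seeing the data, gave medians of -0.29, 0.11 and -0.37. No paired analysis was possible because each population has 1 array, and no array could be left out. Signals below the detection level give bounds only.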
